A study of Homo sapiens with 11 samples.

Results

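Ikaros peaks of untreated REH cells were compared with those of untreated JM1 cells, over chromosomes 1 to 22 and X. JM1 and REH are established human lines of B-cell precursor acute lymphoblastic leukemia (B-ALL), a cancer of immature B cells. JM1 is labelled as pre-B ALL, and REH is known to carry the ETV6-RUNX1 fusion gene, which joins an ETS-family repressor to the DNA-binding factor RUNX1. Both were grown in RPMI1640 medium with 10% serum, neither received a drug, and both were precipitated with the Bethyl antibody A303-516A against Ikaros. The 5 peak lists of the series held 300249 peaks, of which 74867 were compared here. All 37419 JM1 peaks on these chromosomes entered. The REH list held 83516, and its 37448 highest-scored peaks were taken, as many as the whole untreated JM1 list held before 29 peaks on other sequences were left out. Each line had 1 library and 1 list, so no difference below has a replicate check and none was tested. The other 3 lists, used only to look up sites, came from JM1 after 20 µM CX-4945 (an inhibitor of the kinase CK2) for 1 day, from untreated 697 cells and from Nalm6 cells given the same CX-4945 treatment.

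Ikaros, the product of IKZF1, is a zinc finger protein that binds DNA at sites built on a GGGAA core and is required for lymphocyte development. It works with chromatin remodelling and deacetylase complexes and can repress or activate the genes it binds. In B-ALL its gene is often deleted, and in precursor B cells it occupies promoters and enhancers of genes for the pre-B cell receptor, adhesion and the cell cycle.

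Peaks found in both lines held more promoters and more CpG than JM1 peaks without a REH counterpart, and some high-scored intron peaks of either line held runs of GGAA. The following stretches of 200 bp show line-specific peaks of both kinds. Each was read from hg38 on the plus strand, inside the peak and free of annotated exons, as near to the peak centre as that allowed. In the first pair, every CG dinucleotide is in capitals. Among the REH peaks taken by score, promoters without a JM1 peak had more CpG than JM1 promoters without a REH peak. Only REH was cut by score, so the sets are not alike. DNASE1 (REH without JM1, chr16:3611360-3611559) held 18, and VPREB1 (JM1 without REH, in an intron by the authors' class, chr22:22244580-22244779) held 8.
DNASE1: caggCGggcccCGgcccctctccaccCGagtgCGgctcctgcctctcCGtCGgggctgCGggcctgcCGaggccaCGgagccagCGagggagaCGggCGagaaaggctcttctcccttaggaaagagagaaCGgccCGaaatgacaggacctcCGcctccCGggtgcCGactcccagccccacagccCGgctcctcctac
VPREB1: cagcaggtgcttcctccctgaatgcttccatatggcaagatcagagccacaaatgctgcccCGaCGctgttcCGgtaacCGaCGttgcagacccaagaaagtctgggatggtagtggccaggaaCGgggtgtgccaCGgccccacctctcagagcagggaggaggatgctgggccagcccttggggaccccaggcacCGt

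In the second pair, each GGAA or TTCC (the same letters on the other strand) is in capitals. They are intron peaks of 1 line with no peak of the other: NTN1 (REH, chr17:9079571-9079770) held 15 and P2RY8 (JM1, chrX:1514497-1514696) held 31.
NTN1: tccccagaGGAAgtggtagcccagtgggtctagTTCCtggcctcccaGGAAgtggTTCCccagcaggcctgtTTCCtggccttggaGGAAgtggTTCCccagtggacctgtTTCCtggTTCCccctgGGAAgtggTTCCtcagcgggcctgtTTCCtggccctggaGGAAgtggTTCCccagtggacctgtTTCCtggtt
P2RY8: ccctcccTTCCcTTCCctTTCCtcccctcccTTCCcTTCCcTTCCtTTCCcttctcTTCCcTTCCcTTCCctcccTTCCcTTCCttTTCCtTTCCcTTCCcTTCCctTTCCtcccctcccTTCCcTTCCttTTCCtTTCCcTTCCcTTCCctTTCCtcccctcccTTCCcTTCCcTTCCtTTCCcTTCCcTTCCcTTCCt

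Of the 37419 JM1 peaks, 24957 (66.7%, 95% exact Clopper-Pearson interval 66.2 to 67.2) overlapped a top-scored REH peak by at least 1 bp and are called shared. A further 6933 (18.5%) overlapped only a lower-scored REH peak, and 5529 (14.8%) overlapped no REH peak at all. From the REH side, 18795 of 37448 top-scored peaks (50.2%, interval 49.7 to 50.7) overlapped a JM1 peak and 18653 (49.8%) did not. These intervals cover counting error only. REH peaks were wider, with a median of 1633 bp against 873 bp, and 3395 of the shared REH peaks (18.1%) each spanned 2 or more JM1 peaks.

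At equal number the lists were therefore not of equal extent: top-scored REH peaks covered 114 Mb and JM1 peaks 44.3 Mb. Of the JM1 bases 73.3% lay inside a top-scored REH peak, and of the REH bases 28.5% lay inside a JM1 peak. Rules that take extent into account gave lower shares of JM1 peaks. With REH cut to the 13898 highest-scored peaks, which cover as many bases as the JM1 list, 33.2% of JM1 peaks were shared. With every peak set to 500 bp around its centre 27.7% were, and with 50% reciprocal overlap 17.5%. Without peaks over 10 kb the share was 50%, and with the whole REH list it was 85.2%.

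The widest REH domains held series of separate JM1 peaks. A REH peak named for MIR5189 on chr16:88423640-88517929 was 94.3 kb long and contained 20 JM1 peaks of 313 to 6126 bp. At INTS1, which encodes a subunit of the Integrator complex, a REH peak of 90.2 kb on chr7:1428723-1518904 contained 20 as well. FGFR3, a growth factor receptor gene, lay in a REH peak of 73.2 kb (chr4:1743539-1816766) with 13 JM1 peaks. In all, 2044 top-scored REH peaks and 51 JM1 peaks exceeded 10 kb, and 6276 JM1 peaks overlapped such a REH peak.

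Sharing followed the authors' annotation class. Of JM1 promoter peaks 88.0% were shared, against 78.4% of exon, 72.2% of transcription termination, 56.9% of intron and 48.9% of intergenic peaks. The same order held for top-scored REH peaks, from 66.4% of promoter to 34.1% of intergenic peaks. Promoters made up 34.7% of the shared JM1 peaks, 12.04% of those with only a lower-scored REH peak and 6.28% of those with no REH peak. In REH promoters made up 37.2% of shared and 19.03% of REH-only peaks.

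**Figure D1:**
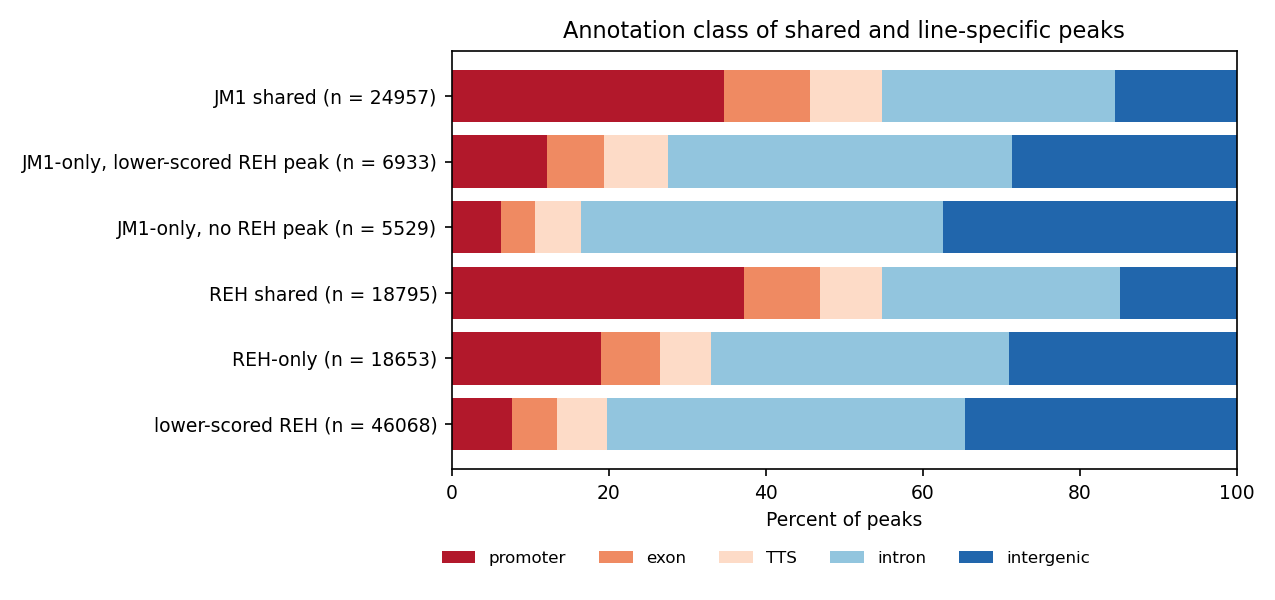
Annotation classes of the compared peaks in percent of each set, with the number of peaks beside its name. Promoters fall from 34.7% in shared JM1 peaks to 6.28% in JM1 peaks with no REH peak, and from 37.2% in shared REH peaks to 19.03% in REH-only peaks.

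Scores are the authors' own and are used only to order peaks within a list, as the percentile of the list that a peak reaches. Shared JM1 peaks had a median score of 16 (percentile 58.2), those with only a lower-scored REH peak 14 (40.3) and those with no REH peak 13 (29.8). In REH the medians were 37 (percentile 83.6) for shared and 29 (72.6) for REH-only peaks. Line-specific peaks had the lower median in each list. Of JM1 peaks scored 10 to 12, 46.1% were shared, and of those scored 40 to 489, 96.9% were; REH peaks rose from 31.1% at scores of 23 to 26 to 87.1% at 101 to 1592.

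Promoters were more often shared than other peaks of the same score. In the lowest JM1 band 72.0% of promoter peaks and 41.7% of the rest were shared, and in the highest band 99.6% and 92.7%. In REH the gap was 41.6% against 29.6% in the lowest band and 87.8% against 85.2% in the highest. Width moved in the same direction as sharing: 49.6% of JM1 peaks up to 500 bp and 99.2% of those over 5000 bp were shared, and in REH 8.10% and 87.6%. The part of width in the class difference was not tested.

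**Figure D2:**
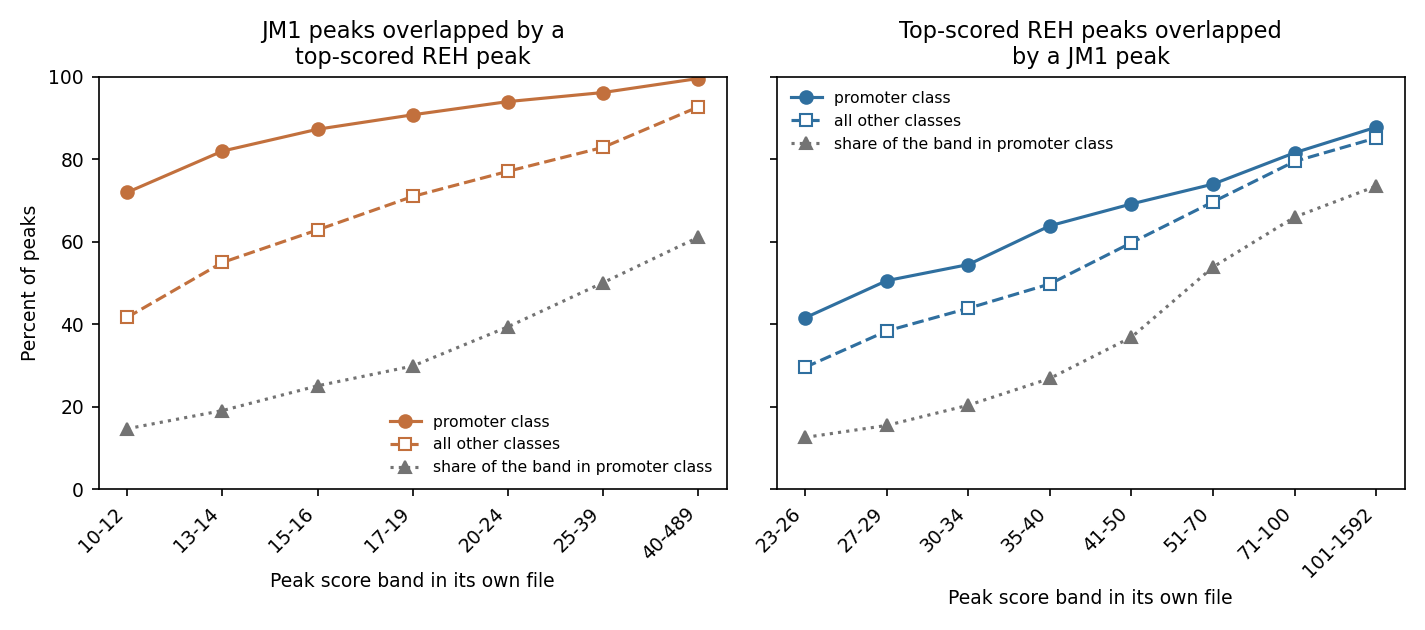
Percent of peaks shared (y axis) by band of the authors' score (x axis) for JM1 peaks (left) and top-scored REH peaks (right), in promoters (filled circles) and other classes (open squares), with the promoter share of each band (grey triangles). Sharing rises with score in each panel, and promoters lie above other classes in every band.

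Among shared JM1 peaks the order of scores in the lines was only loosely alike. Spearman's rho between the JM1 percentile and that of the highest overlapping REH peak was 0.33 over 24957 peaks, 0.32 in promoters and 0.25 in the other classes. The points share the genome's promoter and GC layout, and some share a REH peak, so this is a description. Some promoters ranked high in one line and low in the other, chosen after their values were seen. BCAT1, which encodes a branched-chain amino acid aminotransferase, scored 55 in JM1 (percentile 99.75) and 23 in REH (56.15). PYCARD, the inflammasome adaptor gene, scored 10 in JM1 (1.91) and 117 in REH (99.3), and SGK3, a kinase gene, had the same pair of scores.

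The promoters that ranked highest in both lines ran from chromatin regulators to ribosomal and tRNA synthetase genes. KMT2A, the histone methyltransferase gene rearranged in other leukemias, ranked first, with a score of 379 in JM1 (chr11:118435971-118437493) and 341 in REH (chr11:118433527-118438792). RPS19, a small-subunit ribosomal protein gene, scored 132 and 416 (JM1 peak chr19:41859659-41860929). The 12 also included DARS (aspartyl-tRNA synthetase), PTK2B, SAV1, RFX2, AC231981.1, ANKRD16, SMUG1, ETS2 and PWWP3A. All 12 JM1 peaks also overlapped a peak of CX-4945-treated JM1, 9 a treated Nalm6 peak and 7 a 697 peak. Of all shared JM1 promoters 98.5%, 93.3% and 65.05% did.

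JM1 promoter peaks without any peak in the whole REH list numbered 347 of 9841 (3.53%). The 12 highest-scored ran from 25 to 37, at percentiles of 91.69 to 98.6 of the JM1 list. NBDY, which encodes a small protein of the mRNA decapping complex, led with 37 (chrX:56729205-56729602), followed by KRT5, a basal keratin gene, with 36 (chr12:52520009-52520327). LINC01872, AC092364.2, SCML1, ZNF702P, TAF7L, SMG6, MPPED1, PPP1R2P6, MCM4 and ABHD15-AS1 completed them. MCM4, a subunit of the replicative helicase, scored 26. Of the 12, 3 lay on X and 3 on chromosome 19, which held 189 and 242 of all 5529 JM1 peaks with no REH peak. A peak of treated JM1 overlapped 8 of the 12, against 47.0% of the 347.

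Top-scored REH promoter peaks without a JM1 peak numbered 3549 of 10549. The 3538 lower-scored REH promoter peaks are not in this count. The 3549 were counted against the shorter JM1 list, so their ranks are not set against those of the 347. DNASE1, the gene of a secreted DNA-cutting enzyme, scored 211 (percentile 99.96; chr16:3611073-3612271, shown above), and NOB1, which matures the small ribosomal subunit, scored 183 (chr16:69754453-69755189). C4orf36 scored 177 and PIAS2, a SUMO ligase gene, 164. FAM122A, RBBP6, DNAJA3, TK2, SLC30A5, AL021396.1, KLHL36 and DANCR followed at 143 to 162. Chromosome 16 held 6 of the 12, and 1278 of the 18653 REH-only peaks of all classes. Every one of the 12 overlapped a peak of treated JM1 and of treated Nalm6, against 84.8% and 71.3% of all 3549 REH-only promoters. The 12 sites were thus absent from the untreated JM1 list and present in the list of the same line under the drug, as were most REH-only promoters.

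The same lookup over whole sets gave the following. Of all REH-only peaks 71.0% overlapped a treated JM1 peak, 57.7% a treated Nalm6 peak and 12.2% a 697 peak, and 20.5% none of these lists. JM1-only peaks, defined against the same top-scored set, overlapped a treated JM1 peak in 60.4%, a treated Nalm6 peak in 41.8%, a 697 peak in 6.21% and none in 32.4%. For those among them with no peak in the whole REH list the values were 35.9%, 17.8%, 1.86% and 57.3%. Shared JM1 peaks recurred in 95.9%, 88.7% and 47.1%, with 1.99% in none. The lists differ in length, with 88692 peaks in treated JM1, 70894 in treated Nalm6 and 19652 in 697, and read depth was not analysed here.

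CpG content differed between the sets. It was counted at the midpoint of each peak, and the sets differed in width. Median widths were 1025 bp in shared JM1 peaks, 466 bp in those with no REH peak, 2628 bp in shared REH and 977 bp in REH-only peaks. The part of width in these sequence differences was not tested. In the 300 bp at the peak centre the median count of CpG was 25 in shared JM1 promoters, 10 in promoters with only a lower-scored REH peak and 5 in the 347 with no REH peak. REH-only promoters held 19, closer to the 25 of shared REH promoters. Both of these REH sets are top-scored, and lower-scored REH promoters, with or without a JM1 peak, held 7. Outside promoters, in intron and intergenic peaks, the medians were 9, 6 and 4 in JM1 and 8 and 6 in REH. Median GC was 63.7% in shared JM1 peaks and 57.3% in those with only a lower-scored REH peak, and in REH it was 62.0% in shared and 57.7% in REH-only peaks. Among the 12 highest-scored JM1 promoters without a REH peak the median CpG count was 18.5, above that of the 347.

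**Figure D3:**
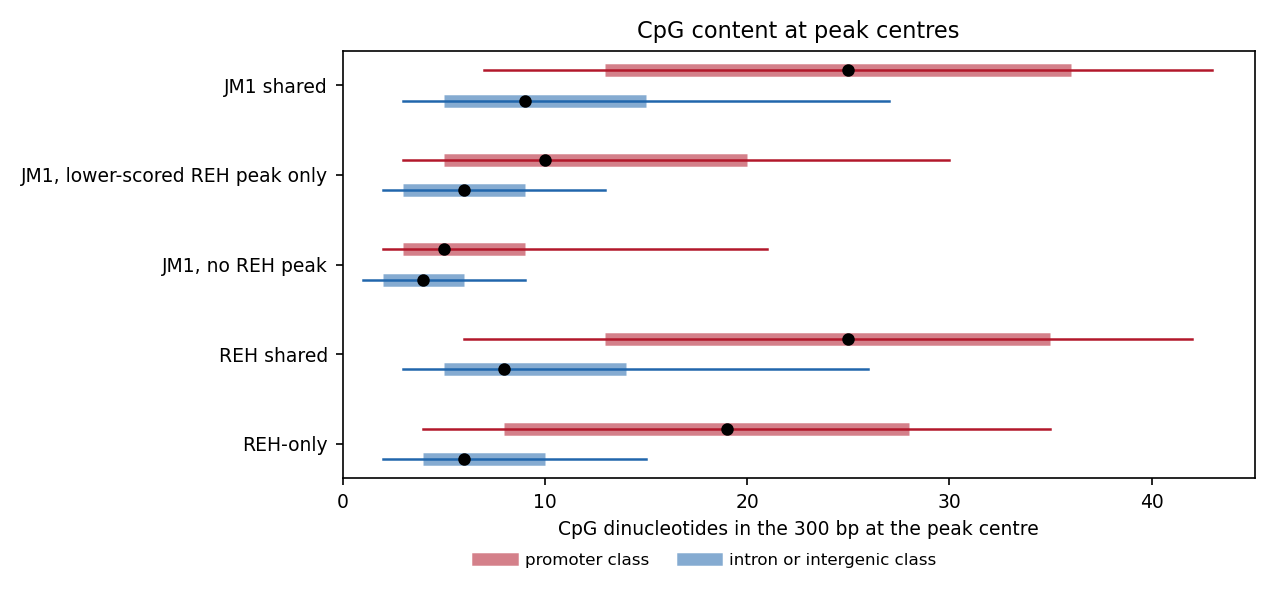
CpG dinucleotides in the 300 bp at the peak centre (x axis) for each set (y axis), in promoters (red) and intron or intergenic peaks (blue). Black dots are medians, thick bars run from the lower to the upper quartile and thin lines from the 10th to the 90th percentile. Promoter medians go from 25 in shared JM1 peaks to 5 in JM1 peaks with no REH peak.

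The core TGGGAA, read on both strands, was present in 23.5% of shared JM1 windows and 29.5% of those without a REH peak, and in 23.9% of shared REH and 28.0% of REH-only windows. Over all peaks it was in 25.5% of JM1 and 27.5% of REH windows. The difference varied with base composition. Among windows under 50% GC the shares were 26.1% in shared JM1 peaks and 27.6% in those without REH. In REH they were 27.0% in shared and 26.8% in REH-only peaks. Among windows of 50 to 60% GC the shares were 30.7% in shared JM1 peaks and 31.9% in those without REH, and 30.5% in both shared REH and REH-only peaks. Among windows of 60% GC and over, which hold 17316 of the 24957 shared JM1 windows, they were 20.7% and 24.9% in JM1, and REH-only windows held the core in 25.3%, above the shared ones. The RUNX core TGTGGT, of interest because REH carries a RUNX1 fusion, was found in 13.2% of shared JM1 windows and 20.5% of those with no REH peak, and in 13.9% of shared REH and 17.7% of REH-only windows. Over all peaks it was in 15.2% of JM1 and 18.1% of REH windows. At 50 to 60% GC the RUNX values were 18.3% and 21.7% in JM1 and 18.7% and 20.4% in REH. At 60% and over they were 10.9% and 17.8% in JM1 and 10.6% and 13.5% in REH. Under 50% GC, which holds 2322 of the 5529 JM1 windows without a REH peak, the RUNX shares were nearly equal. They were 19.2% and 19.7% in JM1 and 19.3% and 19.2% in REH. The ETS octamer CCGGAAGT was in 1.33% of shared JM1 and 0.235% of JM1 windows without a REH peak, against 1.00% of all JM1 windows and 0.758% of all REH windows.

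Runs of GGAA were frequent among the highest-scored intron and intergenic JM1 peaks and less so in REH, a feature looked at after the highest-scored peaks had been seen. GGAA is a part of the Ikaros core GGGAA and is also the core of ETS sites, and TGGGAA and CCGGAAGT both contain it. A run of GGAA need not hold TGGGAA: on either strand the P2RY8 stretch shown above held 0 and the NTN1 stretch 1. A single GGAA or TTCC was present in 92.9% of all JM1 windows, and the median window held 3. Among the 50 highest-scored intron or intergenic JM1 peaks with no REH peak, 13 windows held 10 or more, against 2.14% of all 4621 such peaks. The 50 highest-scored shared JM1 peaks of these classes also had 13, against 0.948% of 11285. At this count the sets of 50 were thus alike, though the lowest score was 49 in the shared set and 26 in the other. With 20 or more there were 5 among the 50 shared peaks and 10 among the 50 with no REH peak. In REH the 50 highest-scored had 4 (8.0%) among REH-only and 4 among shared peaks, against 1.47% of 12500 and 1.02% of 8489, and none of the 50 shared ones held 20 or more.

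The longest runs were seldom shared. Of 85 JM1 peaks with 20 or more GGAA or TTCC in the window, 45 (52.9%) had no REH peak, against 14.8% of all JM1 peaks. Of 52 such top-scored REH peaks, 41 (78.8%) had no JM1 peak, against 49.8% of all. In 44 of the JM1 peaks and 3 of the top-scored REH peaks (18 in the whole REH list) at least 10 of the repeats were GGAAT or ATTCC, the unit of a satellite repeat found near centromeres. Among these were JM1 peaks named for IGKV2D-40 and CWH43, at scores of up to 28 and 26. How repeat length in each line's own genome differs from hg38, and how reads were placed in repeats, was not tested.

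Outside promoters the top-scored line-specific peaks were of several kinds. In REH the highest was a peak named for RNU6-488P on chr3:93470427-93470766, with a score of 1592, a GC content of 21.7% and a peak in every other list except untreated JM1. NTN1, the gene of the guidance cue netrin, scored 192 in an intron (chr17:9078992-9080351) and HNRNPA1P37 165 (chr6:5632434-5632796). CHAF1A, a chromatin assembly gene, scored 151 and ANKRD26 144, at centres 221 and 306 bp from an annotated TSS. In JM1 the 8 highest ran from 35 to 53, led by RNU6-889P on chr10:2099366-2099689 and AP002982.1 on chr8:97559795-97560363, and 4 of the 8 recurred in treated JM1. P2RY8, a receptor gene in the pseudoautosomal part of X, scored 35 (chrX:1514253-1514941).

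Some genes carried several line-specific peaks. RBFOX3, a neuronal splicing factor gene, had 18 JM1-only peaks, TRAPPC9 18 and DLGAP4 14. Most of these overlapped a lower-scored REH peak: only 1, 3 and 2 had no peak in the whole REH list. SHANK2, a synaptic scaffold gene, had 29 REH-only peaks, DLGAP2 27 and SDK1 19, all without any JM1 peak. TRAPPC9 stood in both counts, with 15 REH-only peaks, as did TCERG1L with 13 and 15. LINC02074 on chromosome 17 had 12 JM1 peaks and none among the top-scored REH peaks, and 6 of the 12 had no REH peak at all. The names Y_RNA and Metazoa_SRP had more, but each stands for many loci.

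Chromosomes differed in how much was shared. JM1 peaks with no REH peak were 33.1% of the 571 on X, against 7.59% (chromosome 16) to 24.7% (chromosome 3) on the autosomes. On X, 43.0% of the 86 JM1 peaks in the pseudoautosomal region at its start and 31.3% of the 483 in most of the rest had no REH peak, so both stretches lay above every autosome. Of the JM1 peaks on X without a REH peak, 55.6% overlapped a treated JM1 peak. Chromosome 16 had the lowest share of JM1 peaks without a REH peak. Of its REH peaks scored above 23, 45.1% overlapped a JM1 peak, against a median of 50.2% over the autosomes, and 50.1% of its REH peaks scored above 23 against a median of 40.6%. Copy number of these chromosomes in the lines was not analysed here.

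**Figure D4:**
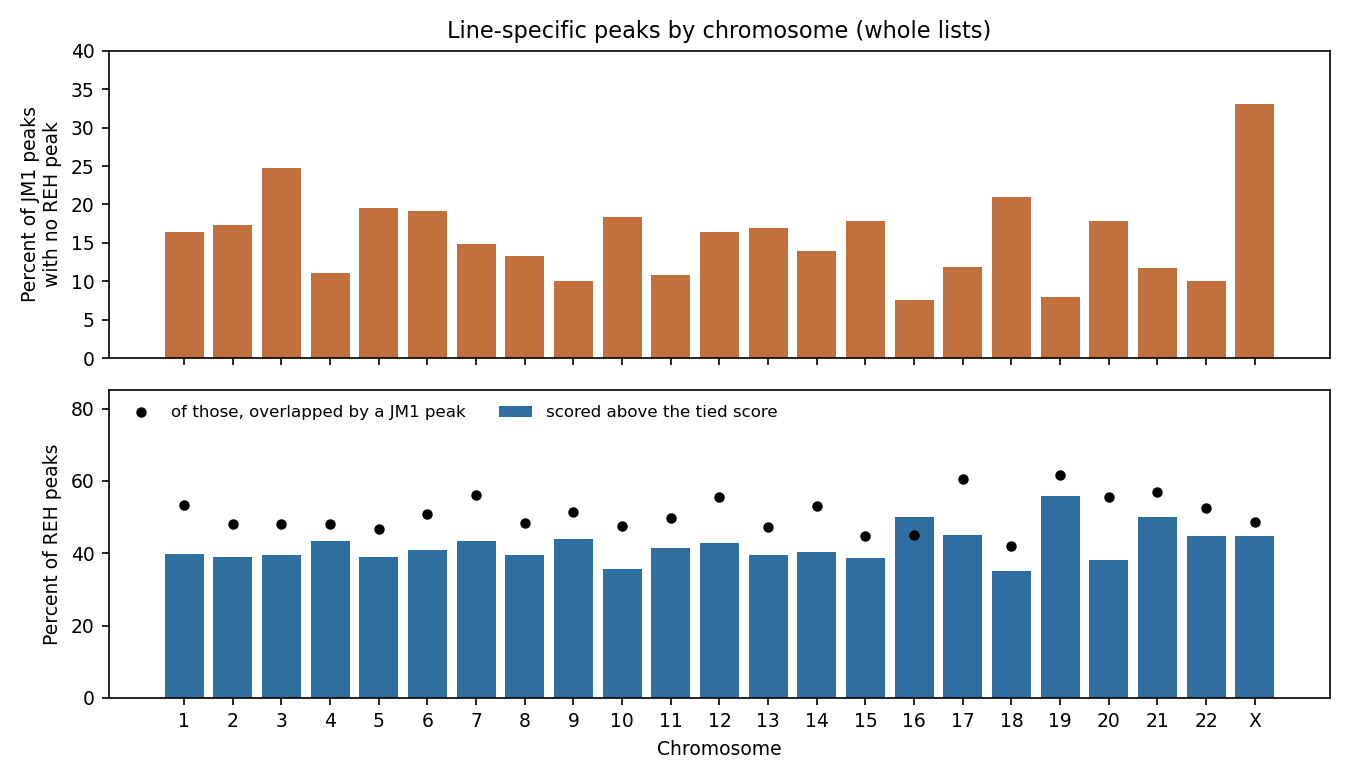
Upper bars, percent of JM1 peaks on each chromosome that overlapped no peak of the whole REH list. Lower bars, percent of all REH peaks that scored above 23, and black dots, percent of those overlapped by a JM1 peak. X has the highest upper bar (33.1%), and chromosomes 16 and 19 have the lowest (7.59% and 7.97%) and the highest lower bars (50.1% and 55.9%).

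Long stretches held peaks of one line only. On chr16:3589552-3880058, which spans DNASE1, TRAP1 and part of CREBBP, there were 32 REH peaks and no JM1 peak. On chr16:3881181-4116652, with REH peaks named for CREBBP and ADCY9, there were 25 REH peaks and no JM1 peak. An untreated JM1 peak separated these stretches, with REH peaks named for CREBBP on either side of it. CREBBP encodes a histone acetyltransferase that is often mutated in relapsed B-ALL. Treated JM1 had 11 and 4 peaks in these stretches. On chr10:13528891-14878417 REH had 60 peaks and JM1 none, with 10 in treated JM1, and on chr1:5423316-5992032, around NPHP4 and KCNAB2, 77 and none, with 31 in treated JM1. Stretches with JM1 peaks alone held fewer peaks, in a comparison of 37419 JM1 peaks with 83516 REH peaks. The most were 6, on chr10:38943057-41899070 and on chr4:49103962-49136102. Treated JM1 had 2 and 2 peaks there, treated Nalm6 9 and 3, and 697 0 and 4. Both held JM1 peaks with runs of GGAAT or ATTCC, the satellite unit described above. A peak named for KSR1P1 had 35 of these in the window, and one named for CWH43 had 34. Another stretch, with 5 JM1 peaks, lay in the immunoglobulin lambda locus (chr22:22061224-22199744), where treated JM1 had 8, treated Nalm6 5 and 697 none.

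VPREB1, which encodes a part of the surrogate light chain of the pre-B cell receptor, lies in the same locus. Its JM1 peak scored 25 (percentile 91.69; chr22:22244383-22245428), and the nearest REH peaks stood on either side of an empty 0.132 Mb. Over the lambda locus as a whole 10 of 19 JM1 peaks (52.6%) had no REH peak, while REH had 30 peaks there. The share was 10.0% on chromosome 22 and 14.8% over all JM1 peaks. Another empty region was common to both lines. Around CDKN2A, the tumour suppressor gene lost in many B-ALL, JM1 had no peak over 1.99 Mb and REH none over 2.91 Mb, treated JM1 none over 1.46 Mb and treated Nalm6 none over 2.22 Mb, whereas 697 had a peak at the gene. Rearrangement or loss of these loci in the lines was not tested.

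At the level of genes, a protein-coding gene was counted for a list if one of its GENCODE transcription start sites lay no more than 1000 bp from a peak's nearest base. Of 19962 genes, 11177 (56.0%) had such a peak in both lists, 598 (3.0%) in JM1 alone, 3558 (17.8%) in REH alone and 4629 (23.2%) in neither. Of the 598, 507 had a lower-scored REH peak, which left 91 (0.456% of all genes) with no REH peak. Of the 3558, 3292 (92.5%) had a peak in treated JM1, as had 90.1% of the JM1-alone genes and 81.5% of all genes. Any JM1 peak was found at 59.0% of genes, any top-scored REH peak at 73.8% and any REH peak at 82.1%. With the base-matched REH cut the order of the line-specific counts turned, with 3068 genes in JM1 alone and 2084 in REH alone.

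**Figure D5:**
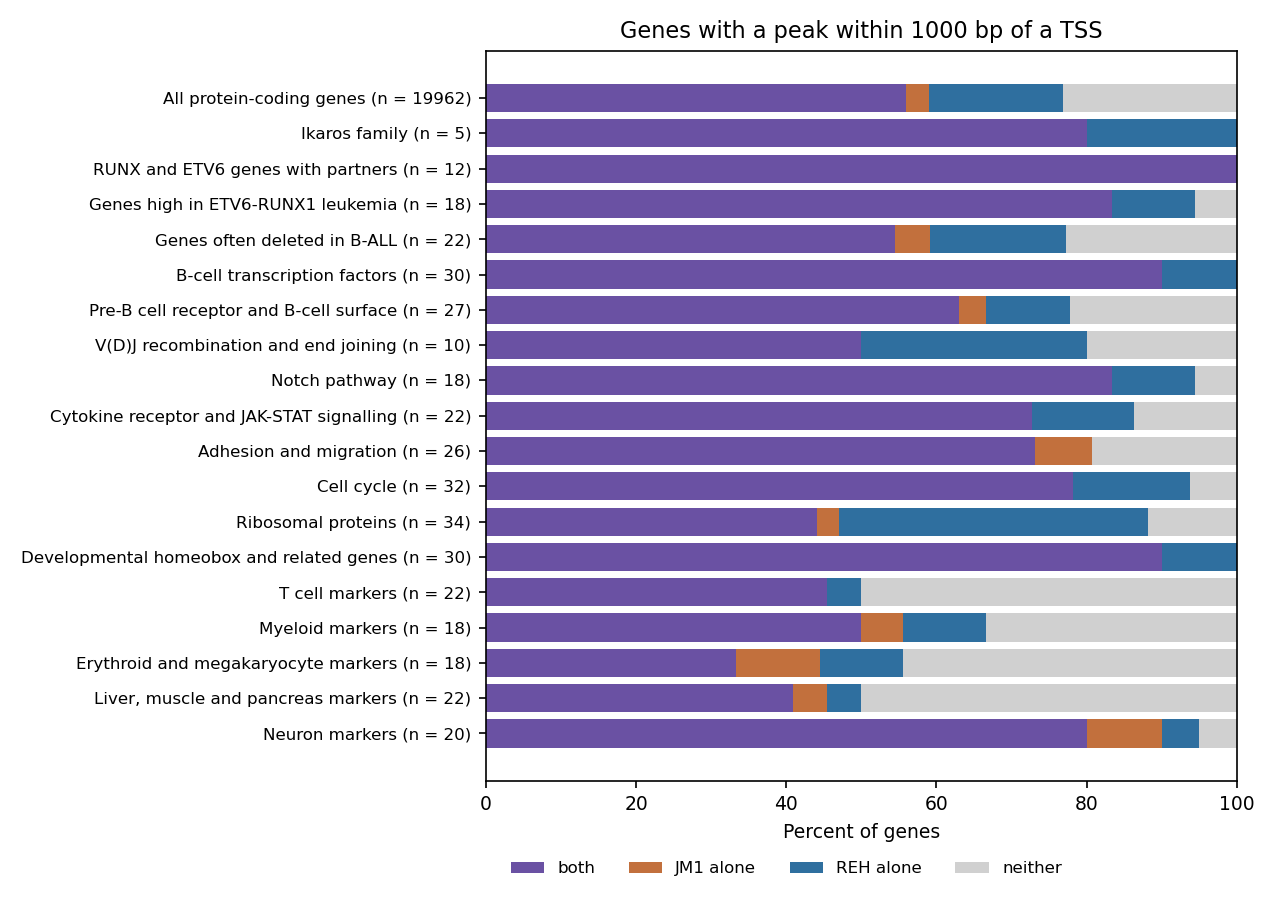
Percent of genes in each list (number in brackets) with a peak near a TSS in both lines (purple), JM1 alone (orange), REH alone (blue) or neither (grey), with all protein-coding genes on top. Ribosomal protein genes have the largest blue share (41.2% against 17.8% of all genes).

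Each list below is read against all protein-coding genes, of which 56.0% were in both, 3.0% in JM1 alone, 17.8% in REH alone and 23.2% in neither. All 5 Ikaros family genes had a top-scored REH peak and 4 had a JM1 peak. IKZF1 itself scored 26 in JM1 and 92 in REH, and IKZF2 (Helios) 31 and 100. The exception was IKZF3, which encodes Aiolos, the Ikaros partner of maturing B cells: its promoter held a REH peak of 74 (percentile 96.25) and no untreated JM1 peak. Treated JM1 and 697 had a peak there and treated Nalm6 had none, and the neighbouring gene ZPBP2 had a peak in both untreated lines (31 and 60). IKZF3 stayed with REH alone under the base-matched cut and when peak centres were used.

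Among 30 genes for B-cell transcription factors, 27 were occupied in both lines, against 56.0% of all genes. The list of 30 developmental genes, with no tie to B cells, also had 27 in both. PAX5, the B-lineage commitment factor, scored 22 in JM1 and 71 in REH, EBF1 24 and 66, and MYB, a progenitor factor, 39 and 101. FOXO1, which drives recombinase gene expression, had a REH peak of 92 and none in JM1, and so had XBP1 (69), the plasma cell stress factor, and SPI1 (44), which encodes PU.1. When peak centres were used, SPI1 was in neither line. The 12 RUNX and ETV6 genes with their partners were all in both. RUNX1 scored 22 and 129, ETV6 47 and 67 and CBFB, the RUNX partner subunit, 24 and 241.

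Of 27 genes that encode parts of the pre-B cell receptor or other surface and signalling proteins of B cells, 17 were in both, VPREB1 in JM1 alone, 3 in REH alone and 6 in neither. BTK, the kinase downstream of the receptor, scored 51 in JM1 (percentile 99.64) and 44 in REH (88.4), SYK 30 and 145 and CD79A 18 and 121. MME, which encodes the precursor marker CD10, had a REH peak of 115, CD34 one of 45 and CD9 one of 43, with none in JM1. Of the 10 genes of V(D)J recombination and end joining, RAG1 (19 and 60) and RAG2 (14 and 37) were in both, as were 3 others. XRCC5 (Ku80, 132), DCLRE1C (Artemis, 83) and NHEJ1 (57) had a REH peak alone, and all 3 kept that state with the base-matched cut.

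Of the ribosomal protein genes 14 of 34 (41.2%) were in REH alone, against 17.8% of all genes, 15 in both, 1 in JM1 alone and 4 in neither. RPS23 scored 120, RPS20 93 and RPS6 69 in REH with no JM1 peak, while RPS14 scored 14 in JM1 and 82 in REH. RPL37 was in JM1 alone (14), with a lower-scored REH peak of 22. With the base-matched cut 11 of the 34 were in REH alone (32.4%, against 10.4% of all genes). In treated JM1 33 of the 34 had a peak, against 81.5% of all genes.

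Of 32 cell cycle genes 25 were in both, among them MCM7 (38 and 194), CDKN1A (38 and 112) and CDK6 (24 and 109). CDKN1B, the p27 inhibitor gene, had a REH peak of 136 and none in JM1, and RBL2 (82), CDC6 (48), CCNA2 (39) and CDC25A (30) did likewise, of which CDC25A lost its peak under the base-matched cut. CDKN2A and CDKN2B had none in either line. Of 22 cytokine receptor and JAK-STAT genes 16 were in both, among them JAK2 at 34 and 97 and SOCS2 at 22 and 132. IL4R (82), IL10RA (51) and IFNGR1 (45) were in REH alone.

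Of 26 adhesion genes, 19 were in both (56.0% of all genes), none in REH alone (17.8% of all genes) and 2 in JM1 alone (3.0% of all genes). Of the last, PECAM1, an adhesion molecule gene of leukocytes and endothelium, scored 12 and had a lower-scored REH peak of 15. ITGB1, an integrin subunit gene, scored 14 in JM1 and 140 in REH, and ICAM1, a leukocyte adhesion ligand gene, 32 and 125. With the base-matched cut 9 of the 26 were in JM1 alone (34.6%, against 15.4% of all genes), CD44 and SELPLG among them. Of 18 genes of the Notch pathway 15 were in both, including RBPJ, its DNA-binding factor (35 and 130), and MAML1 (85) and MAML2 (31), coactivator genes, were in REH alone, though MAML2 had no REH peak under the base-matched cut or by peak centres. NOTCH1 lay in a JM1 peak of 17880 bp and a REH peak of 64719 bp.

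Genes known for high expression in ETV6-RUNX1 leukemia, the subtype of REH, stood at 15 of 18 in both lines, 2 in REH alone and 1 in neither, against 56.0%, 17.8% and 23.2% of all genes. Lists with no tie to B cells had similar shares in both, with 27 of 30 developmental genes and 16 of 20 neuron genes. IGF2BP1, an RNA-binding protein gene, scored 50 and 156, EPOR, the erythropoietin receptor gene, 28 and 89, and SOX11 19 and 106. TERF2, a telomere-binding protein gene, had a REH peak of 102 and DDIT4L one of 45. Of 22 genes often deleted in B-ALL, 12 were in both, 4 in REH alone, VPREB1 in JM1 alone and 5 in neither. The 4 were TOX (81), CD200 (66), ARPP21 (63) and KDM6A (40), and all 4 kept that state under the base-matched cut and by peak centres.

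Genes of other tissues also had peaks. All 30 developmental homeobox and related genes had a top-scored REH peak and 27 a JM1 peak, against 73.8% and 59.0% of all genes. Their REH peaks were low in score and broad, with medians of 31 and 3827 bp against 71 and 3173 bp at B-cell factors. With the base-matched cut 18 of the 30 were in JM1 alone, against 15.4% of all genes. Of 20 neuron genes 16 were in both, and 9 with that cut. Of the B-precursor markers 7 of 10 were in both and DNTT in neither. Of 22 T cell markers 10 were in both, among them the kinase genes LCK and ZAP70, and 11 in neither, among them CD3D, CD3E and CD3G of the T cell receptor complex. Both lines had peaks at 9 of 18 myeloid and 6 of 18 erythroid and megakaryocyte markers, and neither line at 6 and 8. These are longer lists than the marker set with 7 of 10. In the short sets that go with it, 1 of 5 T cell, 0 of 4 myeloid and 0 of 4 erythroid markers were in both. In neither were 4, 1 and 3. A peak near a start site is binding and not expression, so these markers do not check the identity of the lines.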

How the data were processed

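Untreated JM1 and REH Ikaros ChIP-seq peak lists were analysed, 1 list from 1 library per line. The labels' protocols give paired-end sequencing and trimming by BBDuk. Tools listed in the submitters' processing notes are HOMER 4.10, MACS2 2.1.1 and Bowtie2 2.3.4.3, with the build GRCh38. How peaks were called, against which control, and what the score measures are not stated in those notes. The deposited score, a whole number per peak made by the authors, stands in each list beside position, annotation class and nearest gene, per the file headers. Scores started at 10 in both lists.

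REH was cut to the JM1 list length by score. The cut fell at a score of 23, shared by 2936 REH peaks, of which 2297 were taken in order of chromosome and start, so chromosomes were compared on whole lists or above that score. A percentile is the mid-rank of a score within its whole list. Peaks overlapping by 1 bp or more were shared. Shares carry 95% exact Clopper-Pearson intervals, and no test across lines was possible. Transcription start sites came from GENCODE release 44 and sequence from hg38. Motifs were searched on both strands in 300 bp at each peak centre, which is the midpoint of the interval. Overlap and interval code was tested on simulated peaks. Python 3.11.15, pandas 2.3.3, scipy 1.17.1 and pysam 0.24.0 were used.

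Members, comparisons and the 18 gene lists were chosen with earlier results of these data known. Named peaks were the 12 shared promoter pairs with the highest lower percentile, the 12 highest-scored promoter peaks and the 8 highest-scored intron or intergenic peaks of each line with no peak of the other, the 8 gene names with most line-specific peaks per line, and list members in 1 line only or with high percentiles. Exon-free sequence windows, GGAA counts and rank-discordant promoters were chosen once their values were known. Alternatives covered list length, ties, overlap rule, width, distance to the start site and chromosome X. Some members of the lists are not reported here.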

Additional observations from a re-analysis of the deposited data

How the results depend on the processing

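Each of 7 results was recomputed under up to 10 settings, 9 of them planned and 1, leaving out X, chosen after seeing the data. Only the differences in promoter share could change sign, and neither did. The order of the JM1-alone and REH-alone gene counts reversed with REH cut to the covered bases of JM1 (3068 against 2084, from 598 against 3558). Of 60 values 30 stayed within the interval of the reported value (for gene counts, within 1.5 times) and 30 did not.

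With the whole REH list 85.2% of JM1 and 30.4% of REH peaks were shared, the promoter share of shared peaks exceeded that of JM1-only peaks by 23.5 points and of REH-only peaks by 19.9, and 91 genes were in JM1 alone. With REH cut to the covered bases of JM1 these values were 33.2%, 69.2%, 33.7 points, 14.2 points and 3068 genes, with 2084 in REH alone. Reciprocal overlap of 50% gave 17.5% and 17.5%, 29.5 and 27.2 points. Peaks of 500 bp around each centre gave 27.7% and 27.7%, 28.7 and 26.3 points. The 10000 top-scored peaks of each list gave 45.1% and 42.1%, 34.4 and 6.79 points, 4379 genes in both and 1729 in JM1 alone. Without peaks over 10 kb the values were 50% and 47.5%, 20.2 points against REH-only peaks and 1630 genes in JM1 alone. Peak centres within 1000 bp of a start site gave 1876 genes in JM1 alone. The reported values were 66.7% and 50.2%, 25.2 and 18.2 points, and 11177, 598 and 3558 genes. Fewer, narrower or longer intervals enter these settings by construction; no other cause was tested.

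Reversing the order of ties, cutting REH to the JM1 number on the chromosomes compared and leaving out X moved none of the 7 results out of range. No paired analysis was possible because each line had 1 list, and there was no replicate to leave out. Depth, input and mappability were not analysed here, so an absent peak is an absent call and not shown to be absent binding.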
